A study of Homo sapiens with 8 samples.

Results

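The 35 genes described here encode enzymes of glycolysis and the pentose phosphate pathway, regulators of the glycolytic rate, and carriers of glucose, pyruvate and lactate. They were taken from a list of symbols and matched to the gene identifiers of the count tables, and all 35 were found among the 58051 genes counted. Of these, 30 passed the minimum level for a test, a mean normalised read count (BaseMean) above 5, as did 7550 of all genes. PFKFB4, SLC16A1, RPE, MPC1 and TIGAR did not pass and were not tested.

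RNA was measured in MDA-MB-231 (MDA231) cells, a triple-negative human breast cancer line, to compare cells that differ in succinate dehydrogenase (SDH, complex II of the respiratory chain). Parental cells were not modified (n = 2). SDHB KO cells lack the SDHB subunit after cutting of its exon 1 with a TALEN pair and hygromycin selection (n = 3). SDHB KO SDHA low cells, called SDHA low cells from here on, are SDHB KO cells that also carry a stable shRNA against SDHA (n = 3). They were selected with puromycin after transfection of the shRNA plasmid. The SDHB knockout is common to both modified groups. The labels do not say which shRNA was used, whether the lines are clones, or whether the SDHB KO cells carried an empty vector. Untreated cells were harvested from full medium when 70% confluent. Replicates are labelled biological, but nothing says that they came from separate derivations of a line, so differences between groups may also be differences between lines.

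Glycolysis splits glucose into pyruvate in the cytosol, first spending ATP and then regaining it together with NADH. Lactate dehydrogenase turns pyruvate into lactate and returns NAD+, which cells with a blocked respiratory chain depend on, and monocarboxylate transporters carry the lactate out. The pentose phosphate pathway branches off at glucose 6-phosphate and supplies NADPH and the ribose of nucleotides. Its non-oxidative enzymes, transketolase and transaldolase, exchange carbon with glycolysis in both directions.

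Each library held 773042 to 1427141 reads on genes, of which the 35 genes took between 1.40% and 1.88%. Levels are given in CPM, TMM-normalised counts scaled to a common total of reads on the tested genes, and 3 reads correspond to 2.24 to 4.11 CPM. The kit reads 1 fragment from the 3′ end of each transcript, so levels were not divided by transcript length, and counting error alone limits genes with few reads. SDHA had 74.0 and 91.6 CPM in parental cells, 135 to 151 in SDHB KO cells and 8.45 to 17.8 in SDHA low cells, where it fell by 3.46 ± 0.281 from the SDHB KO level on the log2 scale (edgeR adjusted p = 1.16e-07), in the direction of the labels. The SDHB KO level lay above the parental one by 0.80 ± 0.264 without passing (edgeR adjusted p = 0.103). SDHB had 4 and 3 reads in parental libraries and 0 to 3 in the others, which is too few for a test. The line's markers VIM, CD44, AXL, CAV1 and MSN were all read, and ESR1, PGR and PTPRC had no read in any library. Of the other markers looked at, EPCAM, CDH1, PECAM1 and COL1A1 had at most 4 reads in any library. GATA3, a luminal marker, was read in every library, with 8 to 20 reads. SDHA low replicate 2 was the deepest library and stood apart from the other libraries of its group, its chi-squared per degree of freedom being 8.96 and 9.58 against them, compared with 2.99 between those. Reads mapping to several places made up 14.5% to 16.1% of reads in SDHB KO libraries, 10.2% to 10.9% in parental and 9.72% to 12.3% in SDHA low libraries. This share moved with the group, and its part in the results for genes with near-identical pseudogenes was not tested. Among the genes counted, GAPDH has 65 annotated pseudogenes, PGAM1 13, LDHA 6, TPI1 4 and LDHB 3.

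Glycolytic RNA was carried by few genes. GAPDH, the dehydrogenase that makes NADH, had 2779 to 7040 CPM across the 8 libraries, and ENO1, the main enolase, 2606 to 4496 CPM. GAPDH was above ENO1 in the parental and SDHB KO libraries, and ENO1 was above GAPDH in SDHA low replicates 1 and 3, with group means of 3640 and 3631 CPM there. ALDOA (aldolase), PKM (pyruvate kinase, whose 2 splice forms gene counts cannot separate) and TPI1 (triose phosphate isomerase) lay between 582 and 2172 CPM, and their ranges also overlapped. At the other end, SLC16A1, which encodes the lactate carrier MCT1, had 0 reads in all 8 libraries, which allows up to 2.24 to 4.11 CPM, an absence known for this line, whereas the lactate exporter SLC16A3 (MCT4) had 559 to 957 CPM. The remaining untested genes had at most 10 reads in any library. The summed level of all 35 genes was 16610 ± 776 CPM in parental cells (SD, n = 2), 18050 ± 2730 in SDHB KO cells (n = 3) and 15430 ± 2820 in SDHA low cells (n = 3), differences within the spread between replicates.

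**Figure D1:**
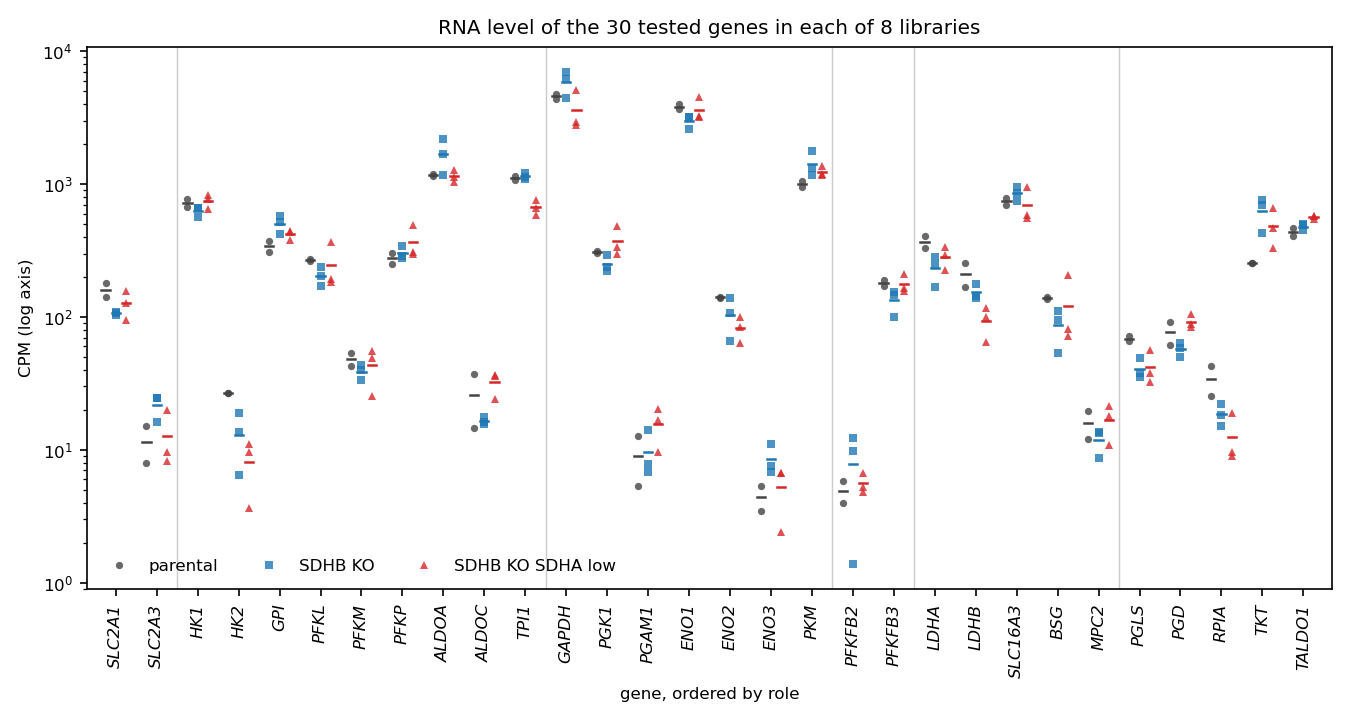
RNA level in CPM (log axis) of the 30 tested genes, ordered by role and separated by grey lines (glucose uptake, preparatory glycolysis, pay-off glycolysis, regulation by fructose 2,6-bisphosphate, lactate and pyruvate, pentose phosphate), with 1 point per library, short bars at the group means and colours for the 3 groups. Levels span from below 10 CPM for ENO3 and PFKFB2 to 7040 CPM for GAPDH. The SDHB KO libraries lie above both parental ones for 5 genes and below both for 12. TKT, GPI and PKM stand higher, and HK2, ENO2, PGLS and RPIA lower, in both modified groups than in parental cells without overlap.

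In each of the 3 comparisons, exactly 1 of the 30 tested genes passed the threshold, an adjusted p below 0.1 over all 7550 genes in the quasi-likelihood test of edgeR. TKT was higher in SDHB KO than in parental cells, where 5.54% of all tested genes passed, 3.14% as higher. TPI1 was lower in SDHA low than in SDHB KO cells, where 1.51% passed, 1.19% as lower. LDHB was lower in SDHA low than in parental cells, where 0.914% passed, 0.689% as lower. The other 29 genes did not pass in each case. The median half-width of the 95% interval over the 30 genes was 0.498 to 0.548 on the log2 scale. That interval is not adjusted for the number of genes, and a call needed a larger difference. Over all tested genes, the smallest absolute log2 fold change that passed was 0.615, 0.66 and 0.751 in the 3 comparisons. Several of the 30 genes with larger differences than these did not pass. DESeq2 gave the same 3 calls and added GPI and LDHA in the first comparison (all genes with an adjusted p 12.4%), none in the second (2.85%), and TKT and TPI1 in the third (1.99%).

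**Figure D2:**
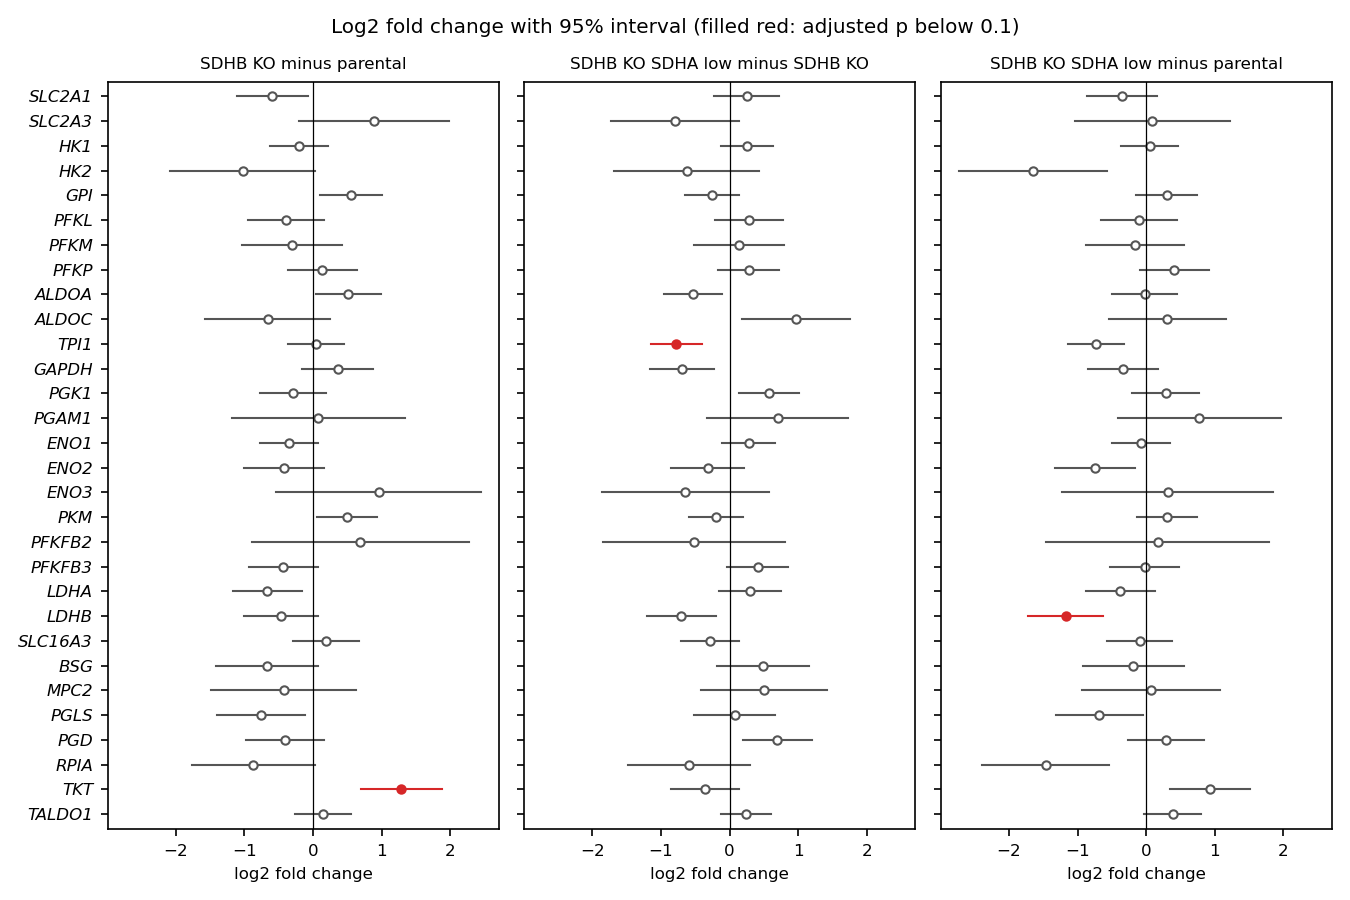
Log2 fold change (points) with 95% interval (lines) of the 30 tested genes in the 3 comparisons, from the fit over all genes; filled red points passed an adjusted p of 0.1. Only TKT, TPI1 and LDHB are filled, each in 1 panel, and most other intervals include 0.

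TKT encodes transketolase, which moves carbon units between sugar phosphates in the non-oxidative pentose phosphate pathway (ENSG00000163931, GRCh38 chr3:53224712-53256052, minus strand). Its level was 256 CPM in each parental library. It was 757, 426 and 696 CPM in SDHB KO replicates 1 to 3, and 468, 663 and 329 CPM in SDHA low replicates 1 to 3. Every modified library lay above both parental ones, and the modified groups overlapped each other. From parental to SDHB KO cells TKT rose by 1.29 ± 0.282 (SE) on the log2 scale (2.44-fold, 95% interval 1.63 to 3.67; edgeR adjusted p = 0.0189). In SDHA low cells it was 0.93 ± 0.279 above the parental level, which did not pass (edgeR adjusted p = 0.153), and the difference between the modified groups was -0.36 ± 0.239 (edgeR adjusted p = 0.576). Without SDHA low replicate 2 the latter was -0.673 and passed (edgeR adjusted p = 0.0801), and without SDHA low replicate 3 it was -0.142, while the difference from parental cells was then 1.147 and passed (edgeR adjusted p = 0.0579). These comparisons share libraries and are not independent. In these bulk libraries, more or fewer cells with an RNA and more or less of it per cell cannot be told apart. The first call was lost without parental replicate 1 (difference 1.288) or parental replicate 2 (1.291), each of which leaves 1 parental library assumed to vary like the other groups. It was also lost without SDHB KO replicate 1 (1.132, edgeR adjusted p = 0.117), where 77 of all tested genes passed in place of 418. The difference was 1.13 to 1.504 over the leave-one-out fits.

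The other 4 tested genes of the pentose phosphate pathway did not pass in any comparison with all libraries. TALDO1 (transaldolase), the partner of TKT in the same branch, had 404 and 465 CPM in parental, 449 to 499 in SDHB KO and 549 to 577 in SDHA low libraries. Its difference between SDHB KO and parental cells was 0.14 (95% interval -0.27 to 0.56), an interval that lies below that of TKT. RPIA (ribose 5-phosphate isomerase) had 42.8 and 25.2 CPM in parental, 15.1 to 22.2 in SDHB KO and 8.95 to 18.9 in SDHA low libraries. The groups did not overlap between parental and modified cells, and the difference for SDHA low cells was -1.46 ± 0.445 (edgeR adjusted p = 0.154), which passed without SDHA low replicate 3 (-1.87, edgeR adjusted p = 0.0886). PGLS (6-phosphogluconolactonase) was lower in SDHB KO than in parental libraries without overlap, by -0.76 ± 0.31 (edgeR adjusted p = 0.195). PGD, the NADPH-producing dehydrogenase, had 61.3 and 91.6 CPM in parental and 49.6 to 63.4 in SDHB KO libraries, and 84.7 to 104 in SDHA low libraries. Its difference between the modified groups was 0.70 ± 0.241 (edgeR adjusted p = 0.225). RPE had 0 to 9 reads.

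TPI1 encodes the isomerase that joins the triose branches of glycolysis (ENSG00000111669, GRCh38 chr12:6867119-6870948, plus strand). It had 1069 and 1156 CPM in parental libraries and 1211, 1091 and 1139.5 CPM in SDHB KO libraries. In SDHA low libraries it had 666, 582 and 761 CPM, below every other library. From SDHB KO to SDHA low cells TPI1 fell by 0.78 ± 0.177 on the log2 scale (0.584-fold, 95% interval 0.452 to 0.753; edgeR adjusted p = 0.0342). Against parental cells the difference was -0.73 ± 0.195 and did not pass (edgeR adjusted p = 0.106), but passed without SDHA low replicate 2 (-0.645, edgeR adjusted p = 0.0909) or 3 (-0.835, 0.0886), and between SDHB KO and parental cells it was 0.04 ± 0.196 (edgeR adjusted p = 0.94). The first call was lost without SDHB KO replicate 1 (edgeR adjusted p = 0.14), SDHB KO replicate 3 (0.136) or SDHA low replicate 1 (0.128), with a difference of -0.88 to -0.70 over the leave-one-out fits. Where it was lost, 39, 40 and 73 of all tested genes passed in place of 114.

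LDHB encodes the lactate dehydrogenase subunit that predominates in oxidative tissue, and LDHA the one that predominates in glycolytic tissue. LDHB (ENSG00000111716, GRCh38 chr12:21635342-21757857, minus strand) had 256 and 167 CPM in parental, 177, 143 and 139 in SDHB KO, and 65.2, 99.2 and 116 in SDHA low libraries. The SDHA low libraries lay below all others, and the parental and SDHB KO libraries overlapped. LDHB fell by 1.17 ± 0.261 from parental to SDHA low cells (0.443-fold, 95% interval 0.304 to 0.645; edgeR adjusted p = 0.0668). From SDHB KO to SDHA low cells the difference was -0.70 ± 0.241 and did not pass (edgeR adjusted p = 0.216), but passed without SDHA low replicate 2 (-0.768, edgeR adjusted p = 0.0913). The call against parental cells was lost without parental replicate 1 (difference -0.83), which leaves 1 parental library. It was also lost without SDHA low replicate 1 (-0.98, edgeR adjusted p = 0.239), where 8 of all tested genes passed in place of 69.

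LDHA had 407 and 329 CPM in parental, 282, 246 and 169 in SDHB KO, and 294, 225 and 334 in SDHA low libraries. Both parental libraries lay above the SDHB KO libraries. The log2 fold change of -0.67 ± 0.241 in SDHB KO cells did not pass in edgeR (adjusted p = 0.137) and passed in DESeq2 (adjusted p = 0.0995), and in edgeR without SDHA low replicate 2 (-0.657, adjusted p = 0.044). That library is in neither group compared, and without it 833 of all 7550 tested genes passed in place of 418. Of the reads on both subunit genes, LDHA held 63.9% ± 3.45 in parental cells (SD, n = 2), 59.8% ± 4.36 in SDHB KO cells (n = 3) and 75.2% ± 6.28 in SDHA low cells (n = 3). The lowest share in an SDHA low library was 69.4% (exact 95% binomial interval 64.9 to 73.7%, which covers counting error only) and the highest elsewhere was 66.3% (61.3 to 71.1%), so the groups did not overlap but these 2 intervals did. LDHA has 6 annotated pseudogenes in the tables, and none had a read. Reads that map to several places are not in the counts, so this does not show that LDHA lost no reads.

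The carriers and the remaining genes of pyruvate and lactate did not pass in any comparison with all libraries. SLC16A3 had 702 and 792.5 CPM in parental libraries, 750.4 to 957 in SDHB KO libraries, and 587, 948 and 559 in SDHA low replicates 1 to 3. Replicate 2 of SDHA low cells, the library that stood apart, was the high one, and without it the difference from SDHB KO cells was -0.595 and passed (edgeR adjusted p = 0.0684). SLC16A3 overlaps CSNK1D on the opposite strand, and without a stated strand setting of the counting its reads cannot be fully told apart from those of CSNK1D. BSG (basigin), the chaperone of these carriers, had 142 and 135 CPM in parental libraries and 53.4 to 111 in SDHB KO libraries, with no overlap and a difference of -0.67 ± 0.36 (edgeR adjusted p = 0.345). Its level in SDHA low replicate 2 was 206 CPM, against 72.4 and 81.3 in the other libraries of the group. BSG overlaps BSG-AS1 on the opposite strand, which had up to 30 reads in a library, so the limit given for SLC16A3 also holds here. MPC2, a subunit of the mitochondrial pyruvate carrier, had 8.63 to 21.2 CPM across all libraries, and the other subunit gene, MPC1, had 0 to 9 reads.

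For glucose uptake, SLC2A1 (GLUT1) had 179 and 142 CPM in parental libraries and 103 to 109 in SDHB KO libraries, without overlap. The difference was -0.60 ± 0.249 (edgeR adjusted p = 0.205). SLC2A3 (GLUT3) went the other way between these groups, with 15.0 and 7.96 CPM in parental and 16.2 to 24.6 in SDHB KO libraries, a difference of 0.89 ± 0.526 (edgeR adjusted p = 0.4). Neither passed, and SLC2A3 rests on 6 to 22 reads per library. Its share of the reads on both carriers was 6.52% ± 1.72 in parental cells, 16.9% ± 3.48 in SDHB KO cells and 8.75% ± 2.22 in SDHA low cells.

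Among the 9 genes of the preparatory steps, the hexokinase HK1 had 565 to 829 CPM in all libraries, with a difference of 0.05 ± 0.202 between SDHA low and parental cells. The second hexokinase, HK2, had 26.6 CPM in each parental library, 13.7, 18.9 and 6.47 in SDHB KO and 3.62, 9.70 and 11.1 in SDHA low libraries. Its differences from parental cells were -1.03 ± 0.508 in SDHB KO cells (edgeR adjusted p = 0.299) and -1.66 ± 0.521 in SDHA low cells (edgeR adjusted p = 0.171), and neither passed on 3 to 23 reads per library. Without SDHB KO replicate 3 the first was -0.679. GPI (glucose phosphate isomerase) had 309 and 376 CPM in parental and 420, 517 and 572 CPM in SDHB KO libraries, a difference of 0.56 ± 0.215 that did not pass in edgeR (adjusted p = 0.169) and passed in DESeq2 (adjusted p = 0.0921), and in edgeR without SDHA low replicate 2 (0.573, adjusted p = 0.0675). The library left out is in neither group compared, and 833 of all tested genes then passed in place of 418. Of the phosphofructokinase reads, PFKP held 46.5% ± 3.4 in parental, 55.5% ± 1.47 in SDHB KO and 55.7% ± 0.22 in SDHA low cells, and the share of PFKL was correspondingly higher in parental cells. ALDOC, the minor aldolase gene, was higher in SDHA low than in SDHB KO libraries without overlap, by 0.97 ± 0.381 (edgeR adjusted p = 0.293), and ALDOA lay in the other direction, by -0.54 ± 0.203 (edgeR adjusted p = 0.27), which passed without SDHB KO replicate 2 (-0.74, edgeR adjusted p = 0.0919), as did its difference between SDHB KO and parental cells (0.716, edgeR adjusted p = 0.0809).

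In the pay-off steps, GAPDH had 4385 and 4766 CPM in parental, 7039.9, 4428 and 6149.9 in SDHB KO, and 2959, 5154 and 2779 in SDHA low libraries. The modified groups overlapped only through SDHA low replicate 2, which was the highest of its group. The difference between the modified groups was -0.69 ± 0.223 and did not pass (edgeR adjusted p = 0.19), and without that library it was -1.055 and passed (edgeR adjusted p = 0.000812), as did the difference of -0.677 from parental cells (edgeR adjusted p = 0.0913). PGK1 (phosphoglycerate kinase) had 220 to 295 CPM in SDHB KO and 297 to 484 CPM in SDHA low libraries, a difference of 0.57 ± 0.209 (edgeR adjusted p = 0.253). The highest level was that of SDHA low replicate 2, and without it the difference was 0.317. PKM was above its parental level of 954 and 1065 CPM in all SDHB KO libraries, 1168 to 1780, by 0.49 ± 0.213 (edgeR adjusted p = 0.22), which passed without SDHA low replicate 2 (0.512, edgeR adjusted p = 0.0922). This library is in neither group compared for PKM, and 833 of all tested genes then passed in place of 418. ENO1 differed by -0.35 ± 0.204, 0.28 ± 0.183 and -0.07 ± 0.205 in the 3 comparisons, with no call, and without SDHA low replicate 2 its differences of SDHA low from SDHB KO and parental cells were 0.076 and -0.26. PGAM1 (phosphoglycerate mutase) had 4 to 27 reads, few for an enzyme that every glycolytic cell needs, and its 13 annotated pseudogenes in the tables had none. Reads that map to both PGAM1 and a pseudogene are not in the counts. ENO3 lies across the opposite strand from PFN1, and its 2 to 10 reads cannot be assigned with certainty because the strand setting of the counting is not given in the sources used here.

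The fructose 2,6-bisphosphate level, which sets phosphofructokinase activity, depends on the PFKFB enzymes and TIGAR. PFKFB3, the form with the strongest kinase, took 91.7% to 96.9% of PFKFB reads. It had 171 and 190 CPM in parental, 99.9 to 153 in SDHB KO and 157 to 211 in SDHA low libraries. SDHB KO lay below both other groups without overlap, and neither difference passed, with -0.43 ± 0.242 against parental cells and 0.41 ± 0.217 between the modified groups (edgeR adjusted p = 0.369 and 0.467). PFKFB2 and PFKFB4 had 0 to 11 reads, and TIGAR 1 to 10.

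Taken as a list, the 30 genes lay on both sides of 0. Log2 fold changes were above 0 for 13 genes in SDHB KO against parental cells, for 16 in SDHA low against SDHB KO cells and for 14 in SDHA low against parental cells, where 49.9%, 51.1% and 51.4% of all tested genes were above 0. Their medians were -0.30, 0.11 and -0.02, beside medians over all genes of -0.00072, 0.013 and 0.017. The first median was -0.074 without parental replicate 1, the second turned to -0.21 without SDHA low replicate 2, and the third ranged from -0.073 to 0.054 when 1 library was left out. An unadjusted edgeR p below 0.05 was reached by 7 genes in each comparison, where 17.5%, 12.1% and 12.3% of all genes reached it. Libraries of SDHB KO and parental cells did not overlap for 17 of the 30 genes, where 37.9% of all tested genes did not, 5 being higher (all genes 19.3%) and 12 lower (18.6%). Those of the modified groups did not overlap for 8 genes (all genes 17.4%), 5 higher (8.7%) and 3 lower (8.69%). Those of SDHA low and parental cells did not overlap for 10 genes (all genes 30.7%), 4 higher (15.2%) and 6 lower (15.5%).

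The 35 genes lie on 13 chromosomes, and 6 of them on the short arm of chromosome 12, taken as its first 33 Mb: TIGAR, GAPDH, TPI1, ENO2, SLC2A3 and LDHB. The 5 tested ones all had a lower level in SDHA low than in SDHB KO cells, with a median log2 fold change of -0.70, and TPI1 was the only call among them. ENO2 had -0.32 ± 0.257 and SLC2A3 -0.80 ± 0.448, neither past the threshold. Of the 25 tested genes elsewhere, 9 were below 0, with a median of 0.25. The other 71 tested genes of this arm had a median of -0.55, with 64 below 0 and 7 called lower (9.86%), beside a median of 0.017 and 1.1% called lower among the other genes elsewhere in the genome. Within 5 Mb of TPI1, 38 of the 40 tested genes besides TPI1 were below 0, with GAPDH, ENO2 and SLC2A3 among the 38. Around LDHB only 4 genes besides LDHB were tested, 2 of them below 0.

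Between SDHB KO and parental cells, the 5 genes had a median of 0.04, with 2 below 0, and the other 71 genes of the arm 0.43, with 22 below 0. Between SDHA low and parental cells the medians were -0.73, with 4 of the 5 genes below 0, and -0.35, with 53 of the 71. The comparisons share libraries, and the differences between them were not tested. The region was looked at after the values of TPI1, GAPDH and LDHB were known, and the number of copies of this arm in each line was not measured, so its part in these levels was not tested.

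**Figure D3:**
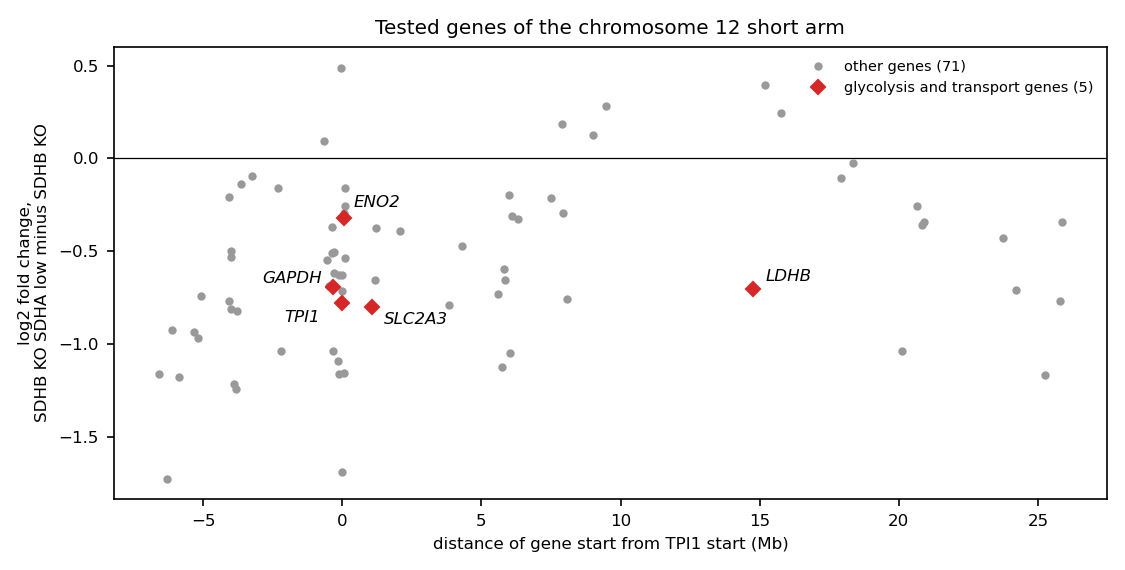
Log2 fold change from SDHB KO to SDHA low cells of the 76 tested genes on the short arm of chromosome 12 against the distance of each gene's start from that of TPI1 (Mb), with the 5 genes of glycolysis and glucose transport as red diamonds and the other 71 genes in grey. Of the grey points 64 lie below 0, and the 5 diamonds lie among them, between -0.32 and -0.80.

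The promoters of TKT and LDHB are shown as those of called genes. TPI1 is left out because its 2 windows overlap exons of its protein-coding transcripts. The 250 bases before the RefSeq transcription start are given 5′ to 3′ on the gene's strand, on GRCh38.p14, at chr3:53256023-53256272 (TKT, minus) and chr12:21657843-21658092 (LDHB, minus, inside an intron of 1 longer protein-coding transcript). The TKT window overlaps the end of the gene's extent given above, but none of its 3 protein-coding transcripts. Capitals mark GGGCGG (the core of a GC box, bound by SP factors) or ACGTG (the core of the hypoxia response element, which also lies within the E-box CACGTG), each searched on both strands.
TKT: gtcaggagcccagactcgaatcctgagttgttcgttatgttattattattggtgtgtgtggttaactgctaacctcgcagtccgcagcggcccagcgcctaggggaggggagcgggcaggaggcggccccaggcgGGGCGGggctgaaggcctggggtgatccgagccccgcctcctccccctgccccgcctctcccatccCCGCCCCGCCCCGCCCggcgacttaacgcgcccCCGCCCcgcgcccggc
LDHB: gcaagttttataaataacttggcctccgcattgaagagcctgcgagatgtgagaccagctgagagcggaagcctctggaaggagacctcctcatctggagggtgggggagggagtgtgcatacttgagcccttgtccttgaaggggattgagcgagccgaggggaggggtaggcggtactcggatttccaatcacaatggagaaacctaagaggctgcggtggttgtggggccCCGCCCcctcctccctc

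The TKT window holds GGGCGG 5 times and no ACGTG, and the LDHB window GGGCGG once and no ACGTG. Of the 35 genes, 32 have an entry in the promoter table, with 61 windows, some of them at starts inside the gene (as for GAPDH). GGGCGG was found in 65.6% of these windows and in 42.6% of all 35116 promoter windows of the same length, ACGTG in 31.1% and 18.5%, and CACGTG in 11.5% and 6.34%. At least 1 window held ACGTG for 16 of the 32 genes. The genes with and without these letters were not compared for their levels, and a match says nothing of whether a factor binds.

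Wider lists of the same metabolism held 1 call among 48 tested genes in each of the 3 comparisons, where 5.54%, 1.51% and 0.914% of all tested genes passed. The lists were 24 other glycolytic isozymes and accessory enzymes (5 tested), 12 other enzymes of the pentose phosphate pathway (7 tested), 26 other sugar and monocarboxylate carriers (3 tested), 19 genes for the entry of pyruvate into the TCA cycle (12 tested) and 28 genes of pathways that branch from glycolytic intermediates (21 tested). No gene of the first 4 lists passed in any comparison in edgeR or in DESeq2, with 3 at an unadjusted p below 0.05, all among the 12 tested of pyruvate entry in SDHB KO against parental cells, where 17.5% of all genes reached it. In the last list, PMM1 (phosphomannomutase) was higher in SDHB KO than in parental cells, by 0.97 ± 0.311 (edgeR adjusted p = 0.0965), with 77.5 and 51.8 CPM in parental and 142, 109 and 132 in SDHB KO libraries. PYGB, a glycogen phosphorylase that releases glucose units from glycogen, had 231 and 249.6 CPM in parental, 224, 213 and 171 in SDHB KO and 107, 73.9 and 106 in SDHA low libraries. It fell by 1.09 ± 0.216 from SDHB KO to SDHA low cells (edgeR adjusted p = 0.0142), and was lower than in parental cells by a log2 fold change of -1.34 ± 0.235 (edgeR adjusted p = 0.0163). The PMM1 call was lost without SDHB KO replicate 1 (edgeR adjusted p = 0.25), SDHB KO replicate 3 (0.203) or SDHA low replicate 1 (0.11), where 77, 148 and 382 of all tested genes passed in place of 418. It was also lost without parental replicate 1 (difference 1.298) or 2 (0.7165). The PYGB call against parental cells was lost without parental replicate 1 (-1.391) or 2 (-1.282). Each fit without a parental library leaves 1 in that group. The other 20 tested genes of this list did not pass in edgeR in each comparison, and DESeq2 added GYS1, a glycogen synthase, in SDHB KO against parental cells.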

How the data were processed

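The authors trimmed reads of QuantSeq 3′ libraries with Trimmomatic, removed ribosomal and mitochondrial reads, aligned the rest to GRCh38 (annotation release 87) with STAR 2.5.2b and deposited raw counts per gene, which were used here. They also deposited these counts as a normalised signal (counts divided by a size factor); these values served only to check library identity, and those labelled SDHB KO replicate 1 match the raw counts of replicate 3 and the reverse, which moves no library between groups.

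Counts were fitted with edgeR 4.0.16 (quasi-likelihood, TMM, all 8 libraries in 3 groups, two-sided) on the 7550 genes with BaseMean above 5, which took 98.4% to 99.1% of reads on genes, in R 4.3.3. P-values were adjusted by Benjamini-Hochberg over all tested genes per comparison, with a threshold of 0.1. The scripts were tested on simulated data. DESeq2 1.42.0, other filters, scalings, samples and blocks were alternatives. GENCODE release 44 gave positions, and RefSeq promoters.

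All 35 genes were accounted for, with full values for those past the threshold and examples by role for the others. The 35 genes and the lists were chosen with earlier results of these data known. Reads that STAR mapped to several places are not in the counts. P-values measure only the spread between these libraries.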

Additional observations from a re-analysis of the deposited data

How the results depend on the processing

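Calls rested on few libraries. Of 17 alternatives, the TKT call held in 14, the TPI1 call in 12 and the LDHB call in 11, and their direction was kept in all 17. Of the 30 genes, 1 passed in each comparison, and the count became 3 in SDHB KO against parental cells and 3 in SDHA low against parental cells in DESeq2, 2 (TKT and LDHA) in SDHB KO against parental cells with only the 2 groups fitted, 2 (TPI1 and GAPDH) in SDHA low against SDHB KO cells and 2 (LDHB and TKT) in SDHA low against parental cells without a filter on low counts, 2 (LDHB and TPI1) in SDHA low against parental cells with a correction for GC content (chosen after seeing the data), and 0 in that comparison with a threshold of 0.05 or only the 2 groups fitted. Leaving out 1 library at a time gave 0 to 4, 0 to 5 and 0 to 4 genes in the 3 comparisons, with 4, 5 and 3 without SDHA low replicate 2, which added GPI, LDHA and PKM in the first, GAPDH, LDHB, SLC16A3 and TKT in the second, and GAPDH and TPI1 in the third. The 4 genes in the third comparison were LDHB, RPIA, TKT and TPI1, without SDHA low replicate 3. ALDOA passed in the first 2 comparisons without SDHB KO replicate 2. Over all genes the counts of 418, 114 and 69 ranged from 0 to 833, 39 to 362 and 4 to 172 when 1 library was left out, lowest without parental replicate 1, SDHB KO replicate 1 and parental replicate 1 and highest without SDHA low replicate 2. They were 171, 64 and 13 at 0.05, and 773, 64 and 7 with only the 2 groups fitted. Without a filter they were 142 in the second and 152 in the third comparison, and with the GC correction 81 in the third. Without SDHA low replicate 3 the count was 113 in the third comparison. Without SDHB KO replicate 2 it was 417 in the first and 93 in the second. Each leave-one-out fit tested 7550 genes, so counts among the 30 genes are to be read beside these. The summed level without GAPDH was 12030, 12170 and 11800 CPM in parental, SDHB KO and SDHA low cells. Each modified line was sampled at most 3 times and the parental line 2 times, and genes under about 20 reads per library are limited by counting error. The causes of these shifts were not tested.

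Replicate numbers did not pair the libraries, since the deviations of same-numbered libraries from their group means correlated by -0.07 on average over 7 pairs (-0.27 to 0.0931). With the replicate number as a block, 1, 0 and 0 of the 30 genes and 199, 59 and 12 of all genes passed, and the adjusted p (edgeR) was 0.0429 for TKT, 0.125 for TPI1 and 0.185 for LDHB. With the block and the GC correction, 1, 0 and 0 of the 30 genes and 200, 53 and 4 of all genes passed. The PMM1 call was lost with the block (adjusted p 0.107) and with the GC correction (0.103), and both PYGB calls when these were combined (0.112 against SDHB KO and 0.148 against parental cells).

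Signs changed only for genes that passed under no setting tried in the comparison concerned. In SDHB KO against parental cells, TPI1 was -0.0039 with the block, -0.046 with the GC correction and -0.088 with both, and PGAM1 was -0.15 with the block and -0.17 with both. In SDHA low against parental cells the block gave -0.011 for HK1 and -0.077 for PFKFB2, the GC correction -0.0045 for HK1, 0.046 for ALDOA and 0.12 for PFKFB3, and both together -0.062 for HK1, 0.061 for ALDOA, -0.11 for PFKFB2, 0.0026 for PFKFB3 and -0.027 for SLC2A3. Leaving out 1 library at a time spanned 0 in SDHB KO against parental cells for ALDOC (-1.16 to 0.17), TPI1 (-0.012 to 0.10) and PGAM1 (-0.39 to 0.85). In SDHA low against SDHB KO cells it did so for PFKL (-0.15 to 0.46), PFKM (-0.090 to 0.42), PFKP (-0.024 to 0.41), BSG (-0.20 to 0.74) and PGLS (-0.22 to 0.22). In SDHA low against parental cells it did so for HK1 (-0.055 to 0.16), PFKL (-0.52 to 0.067), PFKM (-0.40 to 0.13), ALDOA (-0.11 to 0.046), ALDOC (-0.19 to 1.14), ENO1 (-0.26 to 0.014), PFKFB2 (-0.055 to 0.47), PFKFB3 (-0.16 to 0.056), SLC2A3 (-0.39 to 0.63), SLC16A3 (-0.39 to 0.041), BSG (-0.86 to 0.066) and MPC2 (-0.23 to 0.48). The median of the 5 genes on the chromosome 12 short arm in SDHA low against SDHB KO cells lay between -0.88 and -0.57 in the 17 alternatives.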
